A study of Rattus norvegicus with 12 samples.

Results

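Collagen chain genes were examined in RNA sequencing libraries of rat cornea. They were chosen as the protein-coding genes whose symbol has the form of a collagen alpha chain, such as Col1a1, and they number 42 of the 30452 genes measured. The study, titled as work on a silk-based ocular surface patch that removes inflammatory mediators, compared 4 groups with 3 libraries each (12 in all). One was labelled Control and one Alkali-burned. The other two carried the labels SF/HA and SF/HA-HEP-PAM and are called patch groups below, after the study's title. What the Control corneas received is not given, and the abbreviations in the patch labels are not explained. They also do not say whether the corneas of the patch groups were burned, or give the strain, age or sex of the rats, the dose of alkali or the time of collection. Whether the 3 libraries of a group came from separate animals is not given either, so p-values here reflect no more than the spread among the libraries at hand, which may be technical.

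Collagens are triple helices of alpha chains, and each gene encodes 1 chain. In the corneal stroma, thin fibrils of collagen I with collagen V, made and kept by keratocytes, lie in regular layers that let light pass, and collagen VI and the fibril-associated collagens XII and XIV run between them. Collagens IV and XVIII belong to basement membranes, collagen VIII to Descemet's membrane under the corneal endothelium, and collagens VII and XVII anchor the epithelium to the stroma.

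The libraries held between 486264 and 2117399 reads assigned to genes, with the ranges 486264 to 1015788 (Control), 1173159 to 1265298 (Alkali-burned), 499061 to 957696 (SF/HA) and 1245606 to 2117399 (SF/HA-HEP-PAM). Levels are given as RPM, the reads of a gene scaled to a library total of 1000000 reads assigned to genes. A gene at 0 reads could have held up to 1.42 to 6.17 RPM, depending on the library, if 3 reads are taken as the limit of a count of 0, which covers counting error only. Genes were tested where at least 10 RPM was reached in at least 3 libraries, which left 8000 genes. A gene was called when limma gave an adjusted p below 0.05 (Benjamini-Hochberg over the 8000 genes) and a log2 difference above 1 or below -1, on the scale of log2(RPM + 2). That scale understates the change of low genes. Summed markers of keratocytes were high in every library, with 9 markers between 13726 and 39516 RPM. So were summed markers of corneal epithelium, with 11 markers between 20925 and 61847 RPM. Both lists hold Aldh3a1, an abundant gene. Without it, 8 keratocyte markers summed to 8072 to 27119 RPM and 10 epithelial markers to 14724 to 42341 RPM. Some keratocyte markers were low in every library, with Cd34 at no more than 0.852 RPM and Ptgds at no more than 16.6 RPM.

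Of the 42 chains, 21 reached the filter. They were 7 of 11 fibril-forming chains, 2 of 4 chains of collagen IV, 3 of 8 chains of collagens VI, XXVI and XXVIII, the chain of collagen VII, 2 of 3 chains of collagens VIII and X, 4 of 9 fibril-associated chains, 1 of 4 transmembrane chains and 1 of 2 multiplexins, which are basement membrane collagens with an interrupted helix. The other 21 had at most 11 reads in any library and between 0 and 66 reads over all 12 libraries. They were the cartilage chains Col2a1, Col9a1, Col9a2, Col9a3, Col10a1 and Col11a2, the basement membrane chains Col4a3 and Col4a6, the collagen VI chains Col6a4, Col6a5 and Col6a6, and Col13a1, Col15a1, Col19a1, Col20a1, Col23a1, Col24a1, Col25a1, Col26a1, Col27a1 and Col28a1. Among these, 2 (Col19a1 and Col26a1) had no read in any library.

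The promoters of 4 chains or chain pairs on which the results turn are shown first: the chains with the largest rise (Col8a1) and one of the largest falls (Col6a1) in the burned cornea, the chain that was higher in SF/HA-HEP-PAM (Col17a1), and the stretch between the divergent starts of Col4a1 and Col4a2. The sequences come from RefSeq on build GRCr8, while gene positions elsewhere are those of the deposited table on mRatBN7.2. Capitals mark a GC box (GGGCGG) or a CCAAT box (CCAAT) on either strand, or an AP-1 site (TGANTCA), and no marked motif overlaps another.
Col4a1-Col4a2 interval, chr16:84885521-84885596, plus strand: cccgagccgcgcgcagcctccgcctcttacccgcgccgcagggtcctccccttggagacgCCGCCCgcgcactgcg
Col8a1, chr11:56246532-56246781, plus strand: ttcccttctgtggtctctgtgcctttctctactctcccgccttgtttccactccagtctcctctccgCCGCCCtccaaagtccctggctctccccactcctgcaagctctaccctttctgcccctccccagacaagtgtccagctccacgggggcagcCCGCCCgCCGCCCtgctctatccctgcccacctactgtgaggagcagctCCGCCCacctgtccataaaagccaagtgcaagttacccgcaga
Col6a1, chr20:11905440-11905689, plus strand: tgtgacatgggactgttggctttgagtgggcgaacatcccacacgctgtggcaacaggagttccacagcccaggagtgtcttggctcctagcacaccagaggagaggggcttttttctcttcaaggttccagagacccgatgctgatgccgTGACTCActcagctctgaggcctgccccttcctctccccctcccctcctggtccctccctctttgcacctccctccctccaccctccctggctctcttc
Col17a1, chr1:256518858-256519107, minus strand: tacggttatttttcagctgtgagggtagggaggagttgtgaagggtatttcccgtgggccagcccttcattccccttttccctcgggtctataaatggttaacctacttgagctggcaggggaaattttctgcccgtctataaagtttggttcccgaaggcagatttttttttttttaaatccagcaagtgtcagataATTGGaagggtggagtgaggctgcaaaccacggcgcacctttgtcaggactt

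In the 250 bases before the start, 33 of the 42 chains had an entry, 15 of them tested. The GC box lay in 10 of those 15, against 32.4% of all 27457 promoters. The CCAAT box lay in 6 of the 15, against 34.3% of all promoters. The AP-1 site, the binding sequence of Fos and Jun dimers, lay in 1 of the 15, Col6a1, and in 6.36% of all promoters. Col8a1 held the GC box at 4 positions. Such matches describe letters in a window and do not show that a factor binds there.

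Collagen reads took a larger share of the Control libraries than of any other library. Over all 42 chains, the share was 7.10%, 2.52% and 2.82% of reads in Control replicates 1 to 3. It was 1.23%, 1.18% and 1.22% in the Alkali-burned libraries, 1.51%, 1.38% and 1.40% in the SF/HA libraries, and 1.08%, 0.904% and 0.638% in the SF/HA-HEP-PAM libraries. Every Control library lay above every library of the other groups, and every SF/HA-HEP-PAM library lay below all 9 others. Control replicate 1, the library with the fewest reads, stood apart from the other Control libraries, so the counts of chains called against Control are also given without it. The share of all genes called in fits that leave out a library is not reported here. The 2 chains of collagen I held 82.2% to 83.0% of the collagen reads in the Control libraries. Their share was 72.3% to 75.3% in burned cornea, 77.3% to 78.9% under SF/HA and 67.5% to 76.2% under SF/HA-HEP-PAM. In whole cornea, fewer cells of a type and less RNA per cell cannot be told apart.

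Over the 4 groups, 15 of the 21 tested chains differed by limma's moderated F-test at an adjusted p below 0.05, against 32% of all genes tested. The 6 that did not pass were Col12a1 (adjusted p = 0.0512), Col4a2 (0.0542), Col11a1 (0.0836), Col5a3 (0.207), Col22a1 (0.232) and Col14a1 (0.716).

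In the burned cornea, the 3 tested chains of collagen VI, both chains of collagen I, Col5a1 and Col16a1 fell, and Col4a1, Col4a2 and Col8a1 rose. Of the 7 tested fibril-forming chains, 3 were called lower and 4 were not called. Of the 21 chains, 7 were called lower than Control and 3 higher, together 47.6% of the chains, where 8.5% of all genes tested were called (2.49% lower and 6.01% higher). The median log2 difference was -0.75 over the chains and 0.01 over all genes tested. Without Control replicate 1, 5 chains were called lower and 5 higher.

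Collagen VI forms beaded filaments near cells and between fibrils, and all 3 of its tested chains fell. Col6a1 (chr20:11905957-11924597) stood at 2826, 1033 and 1207 RPM in the Control libraries and at 398, 348 and 383 RPM in the Alkali-burned ones. The groups did not overlap, and the log2 difference was -2.01 (SE 0.30, adjusted p = 0.000497 by limma). Col6a2 (chr20:12021767-12057564), the neighbouring gene and second chain of the heterotrimer, fell from 2731, 901 and 988 RPM to 378, 303 and 282 RPM. Its lowest Control library was far above its highest burned library, with a log2 difference of -2.07 (SE 0.32, adjusted p = 0.000586 by limma). Col6a3 (chr9:91361583-91439471), the longest of these chains as a protein, fell from 2005, 540.4 and 702 RPM to 286, 296 and 278 RPM, a log2 difference of -1.67 (SE 0.36, adjusted p = 0.00665 by limma). All 3 chains kept their call when any single library was left out.

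The chains of collagen I, which builds the stromal fibrils, fell as well. Col1a1 (chr10:79883622-79900624) stood at 43225, 15470.2 and 16832 RPM in Control and at 5745, 5897 and 6206 RPM after the burn, with a log2 difference of -1.91 (SE 0.33, adjusted p = 0.00138 by limma). No burned library reached a Control library, and the call held when any single library was left out. Col1a2 (chr4:32563381-32598867), the partner chain of the heterotrimer, stood at 15272, 5399 and 6353 RPM in Control and at 3135, 2961 and 2969 RPM in the burned libraries. Its log2 difference was -1.42 (SE 0.31, adjusted p = 0.00699 by limma), and without Control replicate 1 it was -0.95, which is under the 2-fold limit although its adjusted p was 0.00576.

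Collagen V sits inside collagen I fibrils and limits their diameter. Col5a1 (chr3:11208512-11354588) fell from 315, 72.2 and 78.8 RPM to 40.1, 30.8 and 39.4 RPM, a log2 difference of -1.68 (SE 0.41, adjusted p = 0.0128 by limma), and lost its call without Alkali-burned replicate 2 (adjusted p = 0.0577). Col5a2 was at 1324, 397 and 505 RPM in Control and at 357, 311 and 359.8 RPM after the burn, without overlap, but its log2 difference of -0.91 was not called (adjusted p = 0.0839), whereas without Control replicate 2 it was -1.25 and called (0.0223). The third chain, Col5a3, overlapped between groups, with 39.1, 9.03 and 5.91 RPM in Control and 36.7, 15.0 and 39.4 RPM in burned cornea. It was called higher only when Control replicate 1 was left out (log2 difference 1.69, adjusted p = 0.00420), against 0.98 (0.221) with it.

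**Figure D1:**
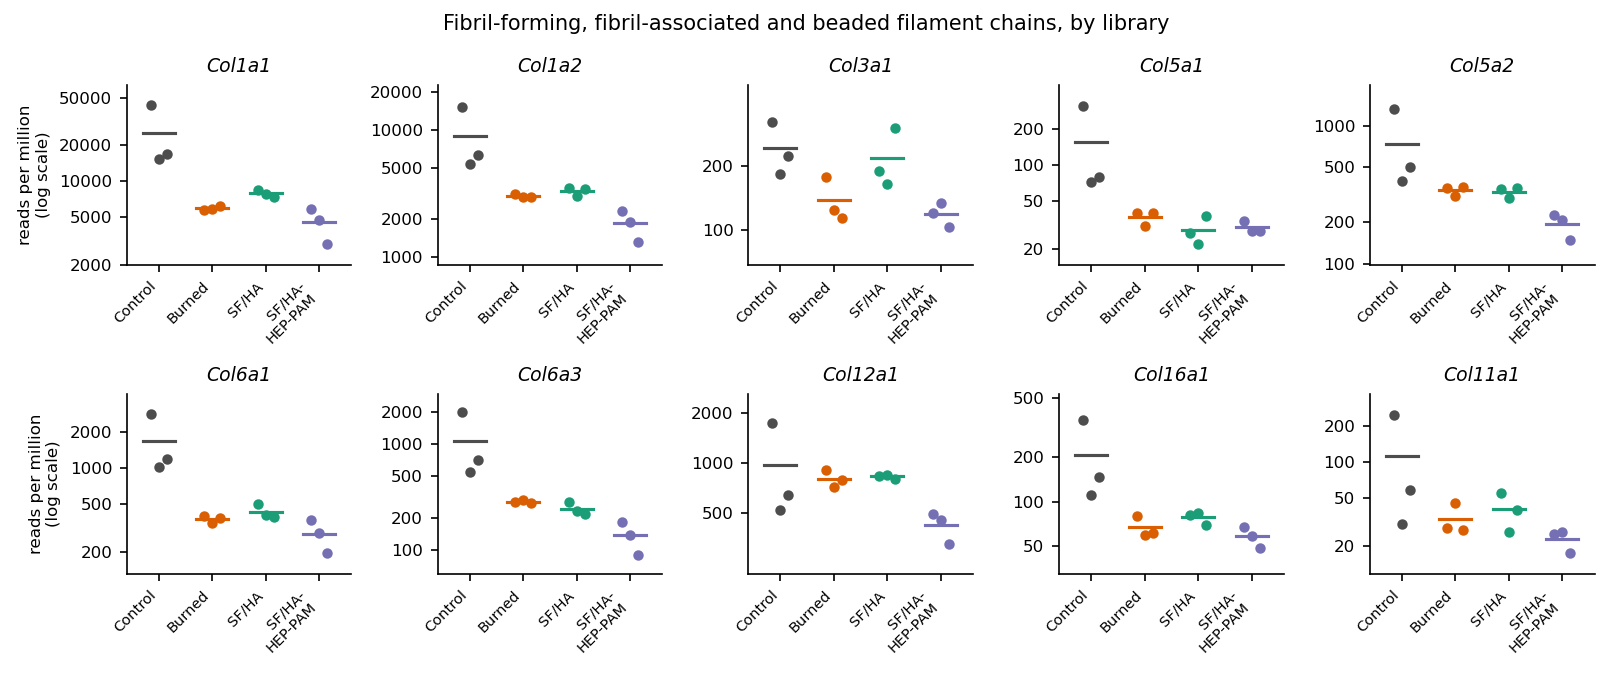
Levels of stromal chains in RPM (log axis, a different range for each chain) in the 12 libraries, with 3 points per group in the order of replicates 1 to 3 and a line at the group mean. Control replicate 1 is the highest point in most panels, and the Alkali-burned points of Col1a1, Col6a1 and Col6a3 lie below all Control points.

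Among the other fibril and fibril-associated chains, 1 of 6 was called. Col16a1 (chr5:142388426-142442825), a minor fibril-associated chain, fell from 359.9, 112 and 147 RPM to 80.1, 59.3 and 61.6 RPM (log2 difference -1.42, SE 0.32, adjusted p = 0.00802 by limma). Its groups did not overlap, but without Control replicate 1 the log2 difference was -0.93, under the 2-fold limit. Col3a1, a fibril chain of soft and healing tissue, stood at 323, 184 and 224 RPM in Control and at 179, 124 and 114 RPM in the burned cornea (log2 difference -0.79, adjusted p = 0.0631). Its burned libraries all lay below Control, and the fitted difference was under 2-fold. Col11a1, which like collagen V nucleates fibrils, ranged from 30.5 to 249 RPM in Control and from 27.1 to 45.8 RPM in burned cornea, and its log2 difference of -1.19 (adjusted p = 0.168) became -1.83 and passed without Control replicate 2 (0.0257), and was -0.36 without Control replicate 1.

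Col12a1 (chr8:80547593-80665686), whose product links fibrils to the surrounding matrix, was not called. It stood at 1738, 520.1 and 639.9 RPM in Control and at 904, 716 and 789 RPM in burned cornea, so that the groups overlapped and the log2 difference was -0.06 (95% confidence interval -0.74 to 0.62, adjusted p = 0.933 by limma). Col14a1, a related fibril-associated chain, was also close to Control, at 26.7, 24.8 and 15.8 RPM against 25.6, 31.6 and 22.2 RPM (log2 difference 0.24, interval -0.32 to 0.79, adjusted p = 0.631). Col22a1, found at tissue junctions, had 4 to 29 reads per library and a log2 difference of -0.75 (adjusted p = 0.208).

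Because chains of 1 library share its depth, the balance between chains was read within each library as a ratio of reads. With 3 libraries against 3, an exact permutation test cannot go below p = 0.10, so these ratios are described without a test. Col12a1 reads per Col1a1 read were 0.0373 ± 0.00335 in Control (mean ± SD, n = 3, also below) and 0.135 ± 0.0194 in burned cornea, beside 0.105 ± 0.00474 for SF/HA and 0.0955 ± 0.0123 for SF/HA-HEP-PAM. All 9 libraries of the other groups lay above the 3 Control libraries. Col1a1 reads per Col1a2 read were 2.78 ± 0.116 in Control and 1.97 ± 0.130 in burned cornea, without overlap, beside 2.40 ± 0.221 for SF/HA and 2.46 ± 0.137 for SF/HA-HEP-PAM. Col1a1 reads per Col5a2 read were 35.0 ± 3.46 in Control and 17.4 ± 1.43 in burned cornea, beside 23.8 ± 2.67 for SF/HA and 23.1 ± 2.89 for SF/HA-HEP-PAM. For both of these ratios every burned library lay below every library of the other 3 groups. Col6a1 reads per Col6a2 read overlapped between all groups, with means between 1.13 and 1.26. Col6a1 reads per Col6a3 read were 1.68 ± 0.254 in Control, 1.32 ± 0.120 in burned cornea, 1.76 ± 0.0387 for SF/HA and 2.08 ± 0.0932 for SF/HA-HEP-PAM, with every burned library below and every SF/HA-HEP-PAM library above all libraries of the other groups.

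**Figure D2:**
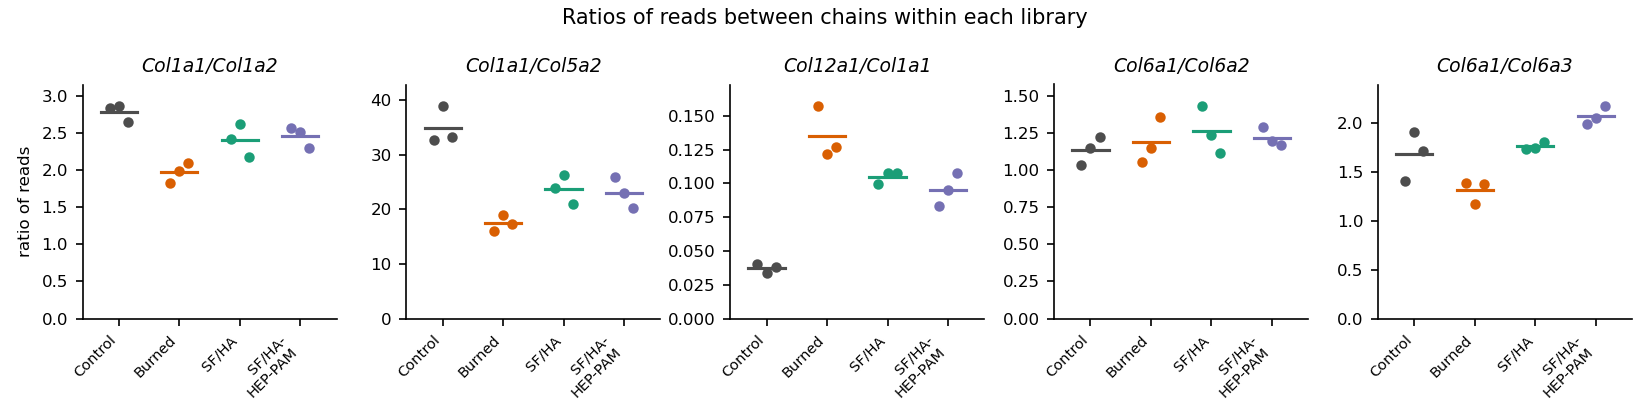
Ratios of reads between pairs of chains within each of the 12 libraries (linear axes from 0, 3 points per group, line at the mean). The Col12a1 to Col1a1 ratio is lowest in the 3 Control libraries, and the Col1a1 to Col1a2 ratio is lowest in the 3 Alkali-burned libraries.

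Chains of collagens IV and VIII moved the other way. Collagen VIII forms the hexagonal lattice of Descemet's membrane and appears in repair. Col8a1 (chr11:42777628-42906424) had 3, 6 and 14 reads in the Control libraries, or 6.17, 6.77 and 13.8 RPM, and 96.3, 48.2 and 53.4 RPM in burned cornea. The groups did not overlap, and the log2 difference was 2.64 (SE 0.36, adjusted p = 0.000184 by limma) and was called whichever library was left out. Its partner Col8a2 (chr5:138585999-138612850) stood at 119, 51.9 and 68.9 RPM in Control and at 151, 107 and 117 RPM in burned cornea. These ranges overlapped and the log2 difference of 0.70 was not called (adjusted p = 0.171), but without Control replicate 1 it was 1.02 and called (0.0215).

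Collagen IV is the network-forming collagen of basement membranes, and its 2 tested chains form the common heterotrimer. Col4a1 (chr16:78183533-78294412) rose from 35.0, 18.1 and 40.4 RPM to 87.8, 81.4 and 80.5 RPM, without overlap, a log2 difference of 1.43 (SE 0.27, adjusted p = 0.00270 by limma). Its call held when any single library was left out. Col4a2 (chr16:78047602-78183839) had 18, 3 and 6 reads in Control, or 37.0, 3.38 and 5.91 RPM, and 46.0, 39.5 and 39.4 RPM in the burned cornea. Its log2 difference was 1.88 (SE 0.53, adjusted p = 0.0321 by limma). This call was lost in 5 of the 12 fits that left out 1 library: adjusted p was 0.147 without Control replicate 2, 0.120 without Control replicate 3, and 0.0995, 0.0815 and 0.0852 without Alkali-burned replicates 1, 2 and 3. The 2 genes lie head to head on opposite strands, and their annotated spans overlap by 307 bp. Whether counting used the strand is not given in the sources used here, so reads in that overlap cannot be assigned to one gene with certainty.

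Basement membrane and anchoring chains beyond collagen IV were not called after the burn. Col18a1 (chr20:11474104-11582593), a multiplexin that releases endostatin, stood at 14.4, 13.5 and 15.8 RPM in Control and at 32.4, 29.2 and 30.4 RPM in burned cornea, without overlap, but just missed the limit (log2 difference 0.98, adjusted p = 0.0539). Col7a1, the chain of anchoring fibrils, was at 26.7, 39.5 and 37.4 RPM against 49.4, 49.8 and 67.4 RPM (log2 difference 0.66, adjusted p = 0.108). Col17a1, a transmembrane chain of hemidesmosomes, was at 228, 294 and 205 RPM against 200.3, 232 and 205 RPM, with a log2 difference of -0.18 (interval -0.60 to 0.25, adjusted p = 0.643).

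**Figure D3:**
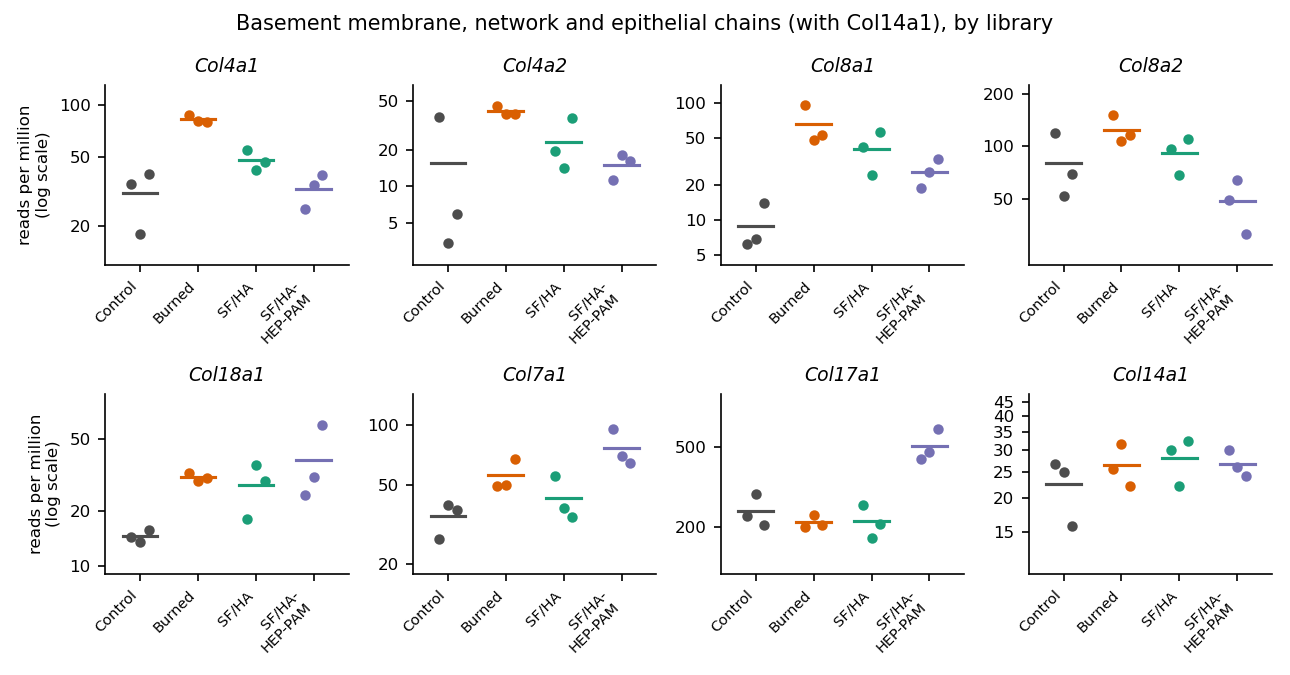
Levels of basement membrane, network and epithelial chains, with Col14a1, in RPM (log axis, a different range for each chain), as 3 points per group in replicate order and a line at the group mean. Col8a1 and Col4a1 are higher in all Alkali-burned libraries than in all Control libraries, and Col17a1 is highest in the 3 SF/HA-HEP-PAM libraries.

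Cell type markers also differed after the burn, and their part in these results was not tested. The summed keratocyte markers overlapped, at 31717 to 39516 RPM in Control and 26250 to 33281 RPM in burned cornea. Aldh3a1, an abundant aldehyde dehydrogenase of the cornea that the epithelium list also holds, made up a large part of that sum. Without it the other 8 keratocyte markers summed to 12211 to 27119 RPM in Control and 18664 to 27081 RPM in burned cornea. The highest of these Control sums was that of replicate 1, and Control replicates 2 and 3 lay below every burned library. The 11 epithelial markers summed to 35633 to 61847 RPM in Control and 20925 to 31533 RPM in burned cornea, without overlap, and 5 of 11 were called lower. Without Aldh3a1 the other 10 overlapped, at 23236 to 42341 RPM and 14724 to 23948 RPM. The lowest of these Control sums was again that of replicate 1, and Control replicates 2 and 3 lay above every burned library. Of the 8 keratocyte markers tested, 3 were called lower and 1 higher, where 8.5% of all genes tested were called. Within the keratocyte list Dcn and Lum, stromal proteoglycan genes, had log2 differences of 0.75 (adjusted p = 0.115) and 0.45 (0.336), and Kera, keratocan, fell by 1.86 on the log2 scale (0.00160). Angptl7, also in that list, stood at 1308, 495 and 466 RPM in Control and at 19.6, 34.8 and 28.8 RPM in burned cornea. All 7 myofibroblast markers summed to 567 to 1590 RPM in Control and 1617 to 2395 RPM after the burn, and Acta2 and Tagln, contractile genes, rose by log2 differences of 3.67 and 5.64. The 8 macrophage markers summed to 154 to 190.0 RPM in Control and 582 to 706 RPM in burned cornea, and all 5 that were tested were called higher. Beside collagen IV, the 9 vascular and pericyte markers summed to 89.1 to 289.97 RPM in Control and 124 to 174 RPM in burned cornea. Control replicate 1 held the highest of these sums, and Control replicates 2 and 3 (89.1 and 99.4 RPM) lay below every burned library. Of the markers that define endothelium, Pecam1 stood at 0 to 2.06 RPM in Control and 2.56 to 10.3 RPM after the burn, Cdh5 at 0 to 2.06 and 1.70 to 8.22 RPM, and Vwf at 0.984 to 2.06 and 0 to 2.37 RPM. Of the 3 vascular markers tested, 1 was called higher: Plvap, a gene of endothelial diaphragms, at 0 to 4.11 RPM in Control and 7.67 to 31.2 RPM after the burn (log2 difference 2.32, adjusted p = 0.0211). Kdr, a VEGF receptor gene, had a log2 difference of -0.70 (adjusted p = 0.303) and Pdgfrb, a pericyte gene that fibroblasts also express, one of 0.04 (0.964). Beside collagen VIII, the 7 corneal endothelium markers, of which Col8a2 is itself one, summed to 366 to 502 RPM in Control and 552 to 648 RPM in burned cornea.

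**Figure D4:**
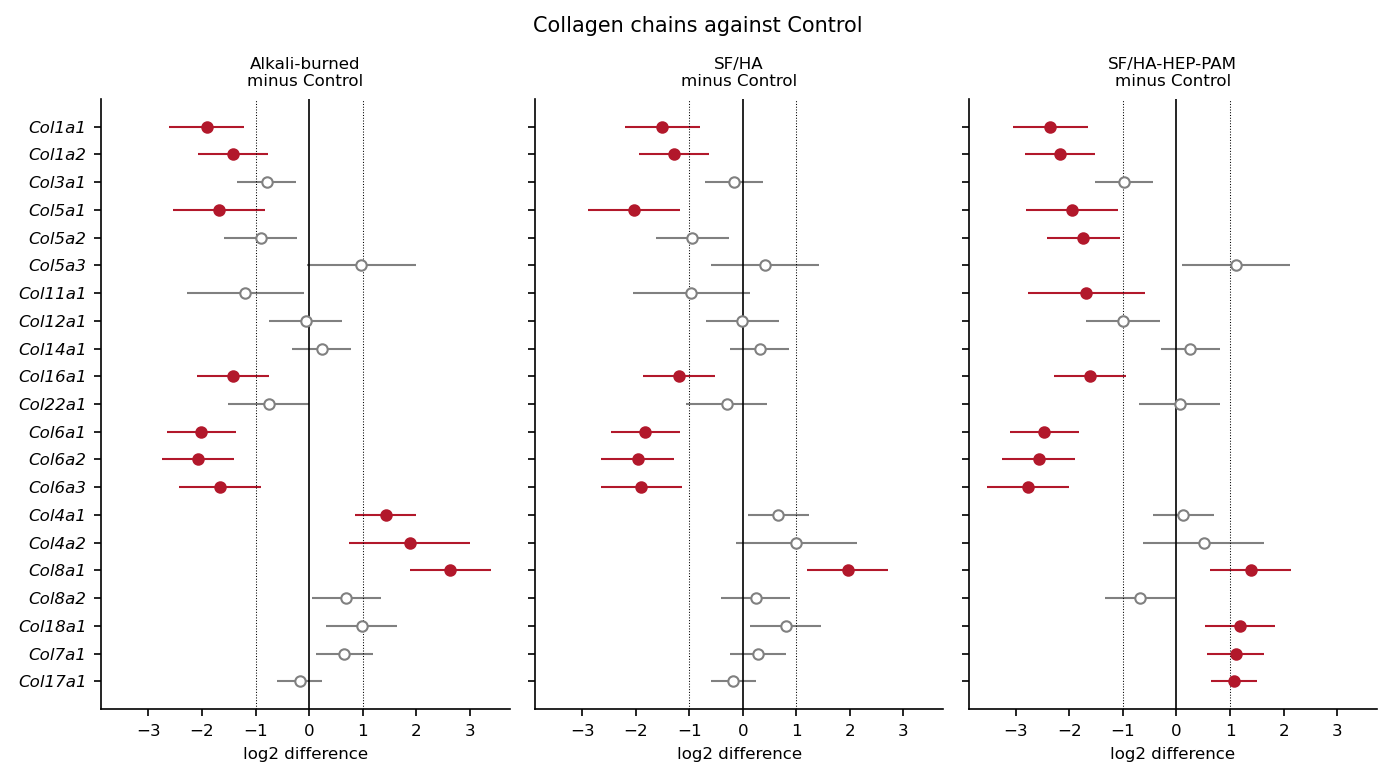
Log2 differences (first group minus Control) of the 21 tested chains with 95% confidence intervals, in 3 panels, one per other group, with filled points for called chains and dotted lines at -1 and 1. The 3 panels share the Control libraries, so their likeness is in part built in.

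Between the SF/HA group and the burned group, no chain was called, where 3.66% of all genes tested were called (0.975% higher and 2.69% lower). At an unadjusted p below 0.05 there were 2 chains, Col3a1 and Col4a1, by limma and by voom alike, against 16.5% of all genes by limma. The log2 differences ranged from -0.88 to 0.63, with a median of 0.0026 for the chains and -0.03 for all genes. Col4a1 stood at 55.4, 42.1 and 47.0 RPM in SF/HA, below all 3 burned libraries, with a log2 difference of -0.77 (interval -1.34 to -0.20, adjusted p = 0.138). Col3a1 stood at 190.1, 164 and 303 RPM, a log2 difference of 0.63 (interval 0.08 to 1.17, adjusted p = 0.229). The interval of Col1a1 ran from -0.29 to 1.11 and that of Col6a1 from -0.45 to 0.84, and differences inside these intervals were not detectable with 3 libraries per group. The summed keratocyte markers were 30103 to 35824 RPM in SF/HA, or 24338 to 27018 RPM without Aldh3a1, a gene that the epithelium list also holds.

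In SF/HA-HEP-PAM compared with the burned group, collagen VIII, Col4a1 and Col6a3 were lower and Col17a1 was higher. Of the 21 chains, 4 were called lower and 1 higher, or 23.8%, where 18.5% of all genes tested were called (5.01% lower and 13.5% higher). The median log2 difference was -0.45 for the chains and 0.15 for all genes tested. Without Control replicate 1, 5 chains were called lower and 1 higher. Without SF/HA-HEP-PAM replicate 3, the library with the smallest share of collagen reads, 3 were called lower and 1 higher. Scaling by TMM moved the median over all genes by -0.14, and the share of called genes that were higher from 72.9% to 60.9%.

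Both collagen VIII chains were lower. Col8a2 stood at 48.9, 64.2 and 31.3 RPM in SF/HA-HEP-PAM, below the 151, 107 and 117 RPM of the burned libraries, with a log2 difference of -1.38 (SE 0.31, adjusted p = 0.00374 by limma) whose call held without any single library. Col8a1 stood at 18.9, 25.5 and 32.9 RPM, below every burned library, with a log2 difference of -1.26 (SE 0.36, adjusted p = 0.0172 by limma). Its call was lost without Alkali-burned replicate 1 (-0.96, adjusted p = 0.0951) and without SF/HA-HEP-PAM replicate 1 (-1.07, 0.0771).

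For collagen IV, Col4a1 stood at 25.1, 34.5 and 39.3 RPM, all below the burned range of 80.5 to 87.8 RPM. The log2 difference was -1.31 (SE 0.27, adjusted p = 0.00225 by limma), and the call held without any single library. Col4a2, at 11.2, 17.9 and 16.1 RPM, was also below all burned libraries, but its log2 difference of -1.37 was not called (SE 0.53, adjusted p = 0.0687). It passed without Control replicate 1 (adjusted p = 0.00347), without Control replicate 2 (0.0390), with TMM scaling (0.0414) and with voom (0.00248). Without Control replicate 1 or 2 the log2 difference was the same, since no Control library enters that difference. Leaving out a library can change the shared spread, the genes that pass the filter and the adjustment over them. Which of these moved the adjusted p was not tested.

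Of the stromal chains, 1 was called. Col6a3 stood at 183, 139 and 89.9 RPM in SF/HA-HEP-PAM, below the 286, 296 and 278 RPM of the burned cornea, a log2 difference of -1.11 (SE 0.36, adjusted p = 0.0328 by limma). The call was lost without any single burned library (adjusted p = 0.0774, 0.0811 and 0.0768 without replicates 1, 2 and 3) and without SF/HA-HEP-PAM replicate 2 (0.0657) or 3 (-0.84, 0.149). Col12a1, at 491, 454 and 324 RPM against 904, 716 and 789 RPM, did not overlap and had an adjusted p of 0.0418, but its log2 difference of -0.94 was under the 2-fold limit. It was called with TMM scaling (-1.09, adjusted p = 0.0155) and with voom (-1.12, 0.00883). Col1a1 stood at 5895, 4764 and 2999 RPM and overlapped the burned libraries, with a log2 difference of -0.44 (interval -1.14 to 0.26, adjusted p = 0.353). Col1a2, at 2302, 1895 and 1302 RPM, and Col5a2, at 227, 207 and 149 RPM, lay below all burned libraries and were not called (log2 differences -0.76 and -0.83, adjusted p = 0.0819 and 0.0656), although Col5a2 was called with voom (-1.01, 0.0143). In all, voom called 7 chains lower in this comparison. The share of all genes that voom called is not reported here. At an unadjusted p below 0.05 there were 12 of the 21 chains by voom, against 42.6% of all genes.

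Col17a1 (chr1:246531367-246577632) stood at 437, 476 and 619 RPM in SF/HA-HEP-PAM, above every library of the other 3 groups, where the highest was 294 RPM. Against the burned group the log2 difference was 1.25 (SE 0.20, adjusted p = 0.000330 by limma), and against the SF/HA group, with 259, 176 and 209 RPM, it was 1.24 (SE 0.20, adjusted p = 0.00131). Both calls held without any single library. These comparisons share the SF/HA-HEP-PAM libraries. Col7a1, at 95.7, 69.9 and 64.2 RPM, was above every SF/HA library (55.4, 38.1 and 34.5 RPM), and overlapped the burned group. Its log2 difference from SF/HA was 0.82 (SE 0.25, adjusted p = 0.0401), under the 2-fold limit, and was 1.02 and called without SF/HA replicate 1 (0.0273).

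Markers moved in the same comparisons, and their part in the results was not tested. The 11 epithelial markers, cells that carry hemidesmosomes, summed to 40960 to 43045 RPM in SF/HA-HEP-PAM, 20925 to 31533 RPM in burned cornea and 28800 to 38293 RPM in SF/HA. Of these markers, 6 of 11 were called higher in SF/HA-HEP-PAM than in burned cornea, where 13.5% of all genes tested were called higher. Against SF/HA, 2 of 11 were called higher, where 8.04% of all genes tested were. The 9 keratocyte markers summed to 13726 to 24193 RPM in SF/HA-HEP-PAM, below the 26250 to 33281 RPM of burned cornea. Without Aldh3a1 both differences in these sums stayed free of overlap, with the other 8 keratocyte markers at 8072 to 13461 RPM in SF/HA-HEP-PAM and the other 10 epithelial markers at 31799 to 35306 RPM. Dcn and Lum had log2 differences of -0.90 and -0.96 against the burned group (adjusted p = 0.0314 and 0.0190). The 7 myofibroblast markers summed to 738 to 931 RPM, below the burned range, and Acta2 and Tagln fell by 2.00 and 2.16 on the log2 scale. The 9 vascular and pericyte markers summed to 233 to 349 RPM, above the burned range, but the list was split. Pdgfrb, at 199 to 317 RPM, made up most of the sum and was called higher (log2 difference 1.43, adjusted p = 0.0108). Plvap, at 1.89 to 9.63 RPM, was called lower (-1.73, 0.0468), and Pecam1 stood at 0.945 to 4.01 RPM. The 7 endothelial markers summed to 539 to 622 RPM, overlapping the burned range.

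Between the 2 patch groups, Col17a1 was the only chain called, or 4.76% of the 21, where 9.04% of all genes tested were called (8.04% higher and 1% lower). The median log2 difference was -0.58 for the chains and 0.22 for all genes. None of the 7 fibril-forming chains was called. The log2 difference was -0.85 for Col1a1 (adjusted p = 0.105) and -0.88 for Col1a2 (0.0730), while Col5a1 (0.09) and Col5a3 (0.69) pointed the other way. It was -0.92 for the network chain Col8a2 (0.0596) and -0.99 for the fibril-associated chain Col12a1 (0.0565), also not called. For Col1a1, Col1a2, Col8a2 and Col12a1 every SF/HA-HEP-PAM library was below every SF/HA library. The same held for Col3a1, Col4a1, Col5a2, Col6a1, Col6a2, Col6a3, Col11a1 and Col16a1. For Col5a3, Col7a1, Col17a1 and Col22a1 every SF/HA-HEP-PAM library was above. The share of all genes tested that did not overlap is not reported here. Col3a1 passed on p with a log2 difference of -0.82 (adjusted p = 0.0497), under the 2-fold limit. The count depended on the method: voom called 7 chains lower (Col3a1, Col5a2, Col1a1, Col8a2, Col1a2, Col6a3 and Col12a1) and limma after TMM scaling called 3 (Col8a2, Col1a2 and Col12a1), beside Col17a1. The shares of all genes called by these 2 methods are not reported here. At an unadjusted p below 0.05 there were 13 of the 21 chains by voom, against 27.1% of all genes. After TMM scaling there were 12, against 25.7% of all genes by limma. TMM scaling moved the median over all genes by -0.16 and the share of called genes that were higher from 88.9% to 70%. Of the keratocyte markers, 4 of 8 tested were lower in SF/HA-HEP-PAM, among them Dcn (-1.21, adjusted p = 0.0130) and Lum (-1.11, 0.0163).

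**Figure D5:**
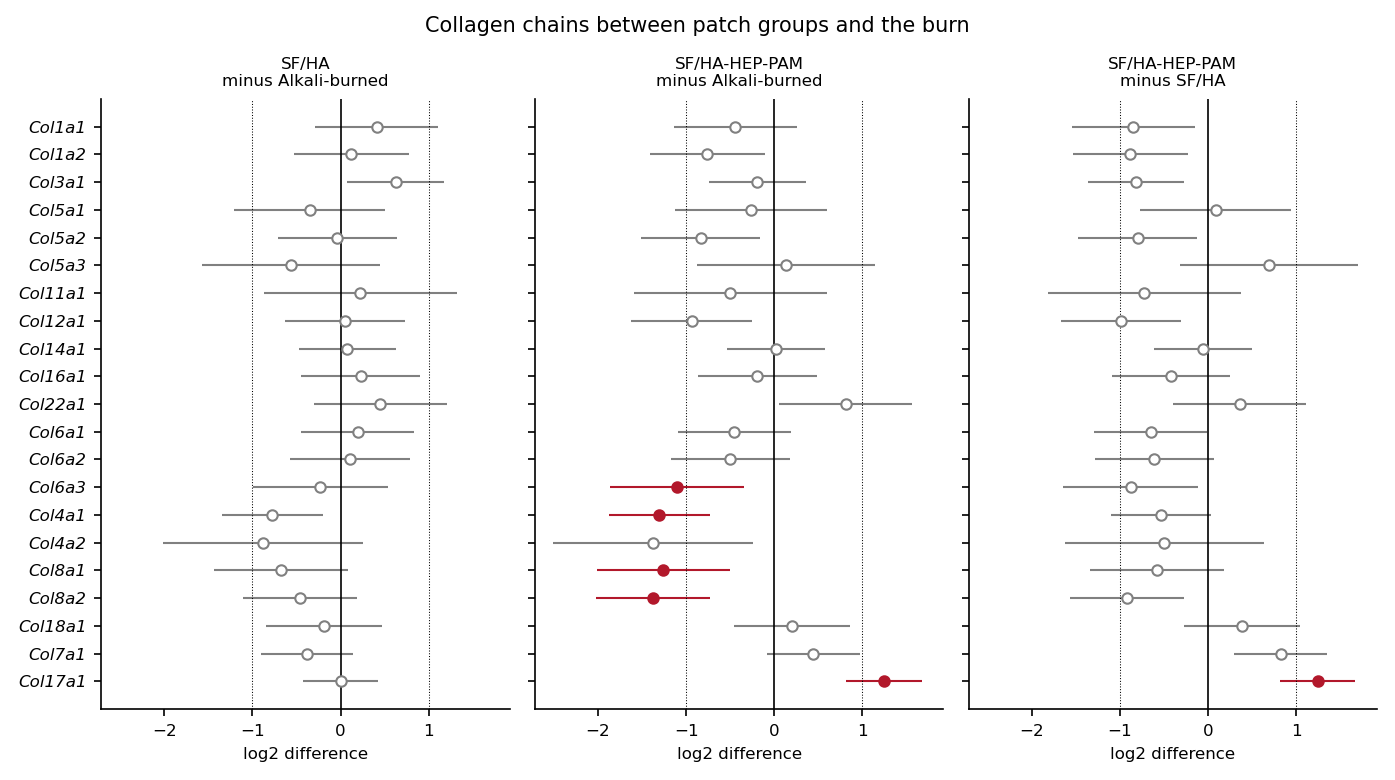
Log2 differences of the 21 tested chains with 95% confidence intervals for SF/HA minus Alkali-burned, SF/HA-HEP-PAM minus Alkali-burned and SF/HA-HEP-PAM minus SF/HA, with filled points for called chains and dotted lines at -1 and 1. No point is filled in the first panel, 5 in the second and 1, Col17a1, in the third.

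Both patch groups were also compared with Control, whose libraries these comparisons share with the burn comparison. In SF/HA, 7 chains were called lower and 1 higher, where 7.25% of all genes were called (2.36% lower and 4.89% higher). The 7 were Col6a1 (log2 difference -1.82), Col6a2 (-1.96), Col6a3 (-1.89), Col1a1 (-1.51), Col1a2 (-1.29), Col5a1 (-2.04) and Col16a1 (-1.19), with adjusted p between 0.000845 and 0.0266, and Col8a1 was the chain called higher (1.96, adjusted p = 0.00207). Without Control replicate 1, 5 were lower and 3 higher: Col1a2 (-0.83) and Col16a1 (-0.70) fell under the 2-fold limit, and Col4a2 (1.86, adjusted p = 0.00199) and Col5a3 (1.13, 0.0444) were added. Col1a2 was also lost without SF/HA replicate 2 (0.0578), and Col16a1 without SF/HA replicate 1 (0.0597), 2 (0.0589) or 3 (0.0917).

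In SF/HA-HEP-PAM, 9 chains were called lower than Control and 4 higher, where 17.4% of all genes were called (3.26% lower and 14.2% higher). Col6a3 had the largest difference, from 2005, 540.4 and 702 RPM in Control to 183, 139 and 89.9 RPM, a log2 difference of -2.77 (adjusted p = 6.47e-05). The others lower were Col6a2 (-2.57), Col6a1 (-2.47), Col1a1 (-2.35), Col1a2 (-2.17), Col5a1 (-1.95), Col5a2 (-1.74), Col11a1 (-1.69, adjusted p = 0.0260) and Col16a1 (-1.61). Col11a1 lost its call without Control replicate 1 (-0.85, 0.0753) and without SF/HA-HEP-PAM replicate 1 (0.0548), 2 (0.0513) or 3 (0.0958). The 4 higher were Col8a1 (1.38, adjusted p = 0.0102), Col18a1 (1.18, 0.0112), Col7a1 (1.10, 0.00410) and Col17a1 (1.07, 0.00121).

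Each of the 4 higher chains lost its call under at least 1 other setting. Without SF/HA-HEP-PAM replicate 3, Col8a1 (adjusted p = 0.0553) and Col18a1 (0.0798) did not pass and Col17a1 was at 0.92, so that 1 chain was higher and 8 lower. Col18a1 stood at 24.4, 30.7 and 59.4 RPM in that group, with replicate 3 the highest. Without Control replicate 1, 5 were higher and 8 lower, with Col4a2 (1.36, 0.00883) and Col5a3 (1.82, 0.00133) added and Col7a1 at 0.94. Col17a1 was at 0.96 without Control replicate 3, and Col7a1 at 0.94 without SF/HA-HEP-PAM replicate 1. None of the 4 was called with voom, and Col7a1 (0.92) and Col17a1 (0.88) were not called after TMM scaling, which moved the median over all genes by -0.17 and the share of called genes that were higher from 81.3% to 69.4%. The 9 lower chains kept their direction in every fit listed here, and TMM scaling added Col3a1 (-1.16) and Col12a1 (-1.18) to them.

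Among genes that make and process collagen, few were called after the burn, as among all genes tested. Of 37 listed genes of collagen synthesis and maturation, 27 were tested, and 2 were called higher and 1 lower in burned cornea, where 8.5% of all genes tested were called. P4ha2, a subunit of prolyl 4-hydroxylase, which hydroxylates prolines so that the helix is stable, rose from 24.3 ± 16.4 RPM to 107 ± 40.6 RPM (n = 3 each, log2 difference 2.16, adjusted p = 0.000695). P4ha3, another such subunit, rose from 0.984 ± 1.71 RPM to 18.1 ± 1.29 RPM (n = 3 each, adjusted p = 0.000688). Sparc, a matricellular protein that binds procollagen, was the gene that fell, from 7303 ± 4412 RPM to 2767 ± 129 RPM (log2 difference -1.24, adjusted p = 0.0121). The Control libraries were widely spread for Sparc, and its value without Control replicate 1 is not reported here. Serpinh1, the collagen chaperone HSP47, had a log2 difference of -0.14 (interval -0.80 to 0.52, adjusted p = 0.834). The list's median log2 difference was 0.20, beside 0.01 for all genes tested and -0.75 for the chains.

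In SF/HA against burned cornea none of the 27 was called, where 3.66% of all genes tested were called. In SF/HA-HEP-PAM against burned cornea 2 of the 27 fell and none rose, where 5.01% of all genes tested were called lower and 13.5% higher. The 2 were Fkbp14, a prolyl isomerase of collagen folding (-1.41, adjusted p = 0.00424), and P3h1, a prolyl 3-hydroxylase (-1.02, 0.0425). Serpinh1 (-0.91, adjusted p = 0.0404) and Pcolce (-0.96, 0.0256), an enhancer of procollagen cleavage, passed on p but were under 2-fold. The list's median was -0.60, beside 0.15 for all genes tested. Against SF/HA, Fkbp14 (-1.20, 0.0232) and Pcolce (-1.01, 0.0352) were lower, where 1% of all genes tested were called lower and 8.04% higher. Against Control, 4 of the 27 were lower (Sparc, Colgalt2, Plod1 and Serpinh1) and P4ha2 and P4ha3 were higher. Of all genes tested, 3.26% were called lower in that comparison and 14.2% higher.

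Of 6 tested collagen receptors and uptake genes, none was called after the burn, and 2 were lower in SF/HA-HEP-PAM than in burned cornea: Mrc2, an endocytic collagen receptor (-1.32, adjusted p = 0.0209), and Ctsk, a collagen-degrading cathepsin (-1.01, 0.00848). Of all genes tested, 5.01% were called lower in that comparison and 13.5% higher. Of 11 tested genes of signals that induce collagen, chiefly the TGF-beta pathway, 1 was called in SF/HA-HEP-PAM against burned cornea, the receptor gene Tgfbr1 (log2 difference 1.20, adjusted p = 0.0486).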

How the data were processed

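The deposited table gives FPKM (fragments per kilobase, scaled to library size) for 30452 genes in 12 libraries, computed by the authors. Per the labels' protocols, cDNA was primed with poly(dT) primers carrying sample barcodes and molecular identifiers (UMIs). Whether UMIs were collapsed is not stated. The submitters' processing notes name bcl2fastq, fastp, STAR, featureCounts and DESeq2 with build mRatBN7.2, and the series text names HTSeq-count for counting. Versions of these tools are not given in the sources used here. The table's length column equals the whole gene span, introns included, for all 30452 genes, so FPKM was multiplied by that length in kb to give RPM, which sums to 1000000 per library. These values were whole multiples of 1 step per library (largest deviation 9.39e-06 of a read), which gave the read numbers. The median span was 109685 bp for the collagen chains and 14968 bp for protein-coding genes, so adding a constant to the deposited FPKM would shrink differences of the chains more. A further 108 lines of the deposited table name no gene and hold spreadsheet error codes in place of values, so they were left out.

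Differences were fitted with limma 3.58.1 (R 4.3.3), with a trend in the variance, on log2(RPM + 2) for genes with at least 10 RPM in at least 3 libraries, over all 12 libraries in 1 model of 4 group means. P-values were adjusted by Benjamini-Hochberg over 8000 genes. All 6 comparisons of groups and a moderated F-test were made. Calls used adjusted p below 0.05 and a 2-fold change, the series text's own limits. The procedure was tested on simulated data. Tried as alternatives were a pseudocount of 5, no filter, the FPKM scale (pseudocount 1), voom on the recovered reads (also TMM-scaled), TMM scaling, a replicate block and each library left out. Leaving out Control replicate 1 with SF/HA-HEP-PAM replicate 3 was added after the data were seen. Every chain that passed the filter could be named, and other genes only where called (up to 4 per list and comparison, by size) or where they are markers. The non-called values of Serpinh1 and Pcolce were chosen after their values were seen. Results for some single genes of the lists are not reported here. The chains and the gene and marker lists were chosen with earlier results of these data known. Depth was 486264 to 2117399 reads, which limits precision for chains with few reads.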

Additional observations from a re-analysis of the deposited data

How the results depend on the processing

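The counts of called chains kept within 1.5 times of their value under most alternatives, and no called difference of a named gene changed direction. On the deposited FPKM scale, where 12 chains passed the filter, 5 chains were called in burned cornea against Control, 2 in SF/HA-HEP-PAM against burned cornea, 4 in SF/HA against Control, 7 in SF/HA-HEP-PAM against Control and 8 by the F-test. Fewer chains tested is part of that. With voom, 8 chains were called in SF/HA-HEP-PAM against burned cornea and 8 against SF/HA, where TMM scaling gave 4; the cause was not tested. Leaving out 1 library at a time gave 8 to 11 calls in burned cornea against Control, 0 in SF/HA against burned cornea, 3 to 6 in SF/HA-HEP-PAM against burned cornea (3 without Alkali-burned replicate 1), 1 to 2 between the patch groups (2 without SF/HA replicate 1, SF/HA replicate 2 or SF/HA-HEP-PAM replicate 2), 6 to 9 in SF/HA against Control, 9 to 15 in SF/HA-HEP-PAM against Control and 13 to 18 by the F-test. The replicate block gave 10, 0, 5, 1, 8 and 13 calls in the 6 comparisons and 17 by the F-test. The shares of all genes called under these alternatives are not reported here, so the counts cannot be set against them. Whether replicate numbers pair the samples is not known. Over 18 same-numbered pairs the correlation of deviations ran from -0.206 to 0.224, and over 36 other pairs from -0.197 to 0.243. With 3 libraries per group, such ranges cannot exclude a pairing of some libraries. Depth limits chains with few reads, such as Col8a1 and Col4a2 in Control.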

Other observations

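When the filter on low values was dropped, 19 further chains could be tested. None of them was called in burned cornea against Control or in SF/HA against either group. Col25a1, a transmembrane chain, was called in SF/HA-HEP-PAM against burned cornea, where its mean was higher. Against Control, Col9a1, Col9a2 and Col25a1 were called in SF/HA-HEP-PAM, in opposite directions. The means of Col9a1 and Col9a2 were lower than in Control, and that of Col25a1 was higher. The most reads in any library were 3 for Col9a1, 5 for Col9a2 and 7 for Col25a1. None of the 19 further chains had more than 11 reads in any library. The share of all genes called without the filter is not reported here.

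Among cell types that do not build the stroma, the 8 macrophage markers summed to 154 to 190.0 RPM in Control, 582 to 706 RPM in burned cornea, 497 to 1020 RPM in SF/HA and 440 to 524 RPM in SF/HA-HEP-PAM. The 6 neutrophil markers summed to 343 to 391 RPM in Control, 1281 to 6643 RPM in burned cornea, 1672 to 17222 RPM in SF/HA and 2119 to 19839 RPM in SF/HA-HEP-PAM. S100a9 and S100a8, genes of calcium-binding proteins, carried these sums, and S100a9 was highest in 1 library of each of the last 3 groups (5847, 15483 and 18022 RPM), while Mpo stood at 0 in all 12 libraries. In the Control libraries S100a9 stood at 319 to 355 RPM, and Csf3r and Cxcr2, also in the list, at 0. The 5 Schwann cell markers summed to 108 to 130.4 RPM in burned cornea and to no more than 67.9 RPM in any other library, with Sox10 at 0 to 1.58 RPM over the 12 libraries. The share of collagen reads was lower in the burned and patch groups, in which the summed macrophage markers were higher. In each patch group 4 of the 5 macrophage markers tested were called higher than Control, where 4.89% (SF/HA) and 14.2% (SF/HA-HEP-PAM) of all genes tested were. Cd68 overlapped, at 90.5 to 149 RPM in Control, 105 to 145 RPM in SF/HA and 87.4 to 120 RPM in SF/HA-HEP-PAM. Whether these cell types bear on the collagen levels was not tested.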
